A study of Mus musculus with 6 samples.

Results

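Mouse embryonic stem (ES) cells homozygous for the NcGFP knock-in (NcGFP ki/ki) were compared with cells heterozygous for it (NcGFP ki/+), with 2 arrays of each genotype, which are 4 of the 6 arrays of the series. The remaining 2 arrays were of wild type W4 ES cells, whose values are given beside the knock-in values and which entered the fit to estimate the spread. All 3 genotypes had the same culture: medium with fetal calf serum and LIF on a diluted plate of EMFI, read here as embryonic fibroblast feeder cells, so RNA of feeder cells can be present in each sample. The labels do not spell out NcGFP. It is read here, from knowledge of the field and not from the labels, as a GFP-tagged N-cadherin inserted into Cdh1, the E-cadherin gene. The labels name neither the targeted locus nor the number of ES cell clones behind a genotype, and the replicates of a genotype were independent experiments according to the series text. Every probe set that was not a control and exceeded a log2 intensity of 4 on at least 2 arrays was compared, which kept 37950 of 45101 probe sets and 16706 named genes.

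Classical cadherins are transmembrane proteins that bind the same cadherin on a neighbouring cell and hold on to the actin cytoskeleton through beta-catenin and alpha-catenin. E-cadherin is the main classical cadherin of ES cells and of epithelia, and N-cadherin is that of neural and mesenchymal cells, fibroblasts included. Mouse ES cells keep an undifferentiated state through a network of transcription factors around Oct4 (Pou5f1), Sox2 and Nanog, which LIF sustains. Feeder fibroblasts make interstitial collagens, matrix proteases and a contractile actin cytoskeleton, which undifferentiated ES cells make little of.

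The replicates of the knock-in genotypes were further apart than those of wild type. The ki/+ arrays correlated at a Pearson r of 0.9907 and differed more than 2-fold in 303 genes. Each r here was taken over all probe sets that were not controls, without the intensity filter. The ki/ki arrays correlated at 0.9756 and differed more than 2-fold in 1306 genes. The 4 pairs of a ki/+ and a ki/ki array differed that much in 278 genes (ki/+ replicate 2 with ki/ki replicate 1), 778 (both replicates 1), 1351 (both replicates 2) and 1634 (ki/+ replicate 1 with ki/ki replicate 2). By this count the closest pair of knock-in arrays was of different genotypes. By Pearson r the closest pair was the 2 ki/+ arrays, at 0.9907, beside 0.9905 for ki/+ replicate 2 with ki/ki replicate 1. No gene differed more than 2-fold between the wild type arrays, whose r was 0.9974. The Y-linked Eif2s3y, a translation initiation factor subunit gene, had log2 intensities of 9.49 and 4.60 on the ki/+ arrays and 9.13 and 5.33 on ki/ki replicates 2 and 1, beside 5.16 and 5.33 on the wild type arrays. Thus 1 array of each knock-in genotype was high and the other low for this gene, and its 2 groups overlapped. Genotypes are used here as the labels give them, and whether replicates were different clones, or an array carries the label of another, was not tested. Each ki/ki minus ki/+ value below depends on those labels. The control probe sets for 18S ribosomal RNA were far brighter on the knock-in arrays than on the wild type arrays (mean log2 intensity 11.40 against 7.17), and whether labelling differed between them was not tested. Wild type levels are set beside the others with that limit.

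The level of fibroblast genes also differed from array to array. The feeder level, as it is called here, is the median deviation of 30 matrix genes of fibroblasts from their means over the 6 arrays. It was -1.17 and -0.48 (log2) on the ki/+ arrays and -0.03 and 1.48 on the ki/ki arrays. Both ki/ki arrays lay above both ki/+ arrays, and the wild type arrays, at 0.08 and 0.21, lay between the ki/ki arrays. The knock-in arrays therefore have a fixed order of feeder level, from ki/+ replicate 1 through ki/+ replicate 2 and ki/ki replicate 1 to ki/ki replicate 2. These genes are not specific to feeder cells, and whether the RNA came from feeder cells or from mesenchymal cells among the ES cells was not tested. In RNA of a mixed culture, more feeder cells and more RNA per feeder cell cannot be told apart.

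**Figure D1:**
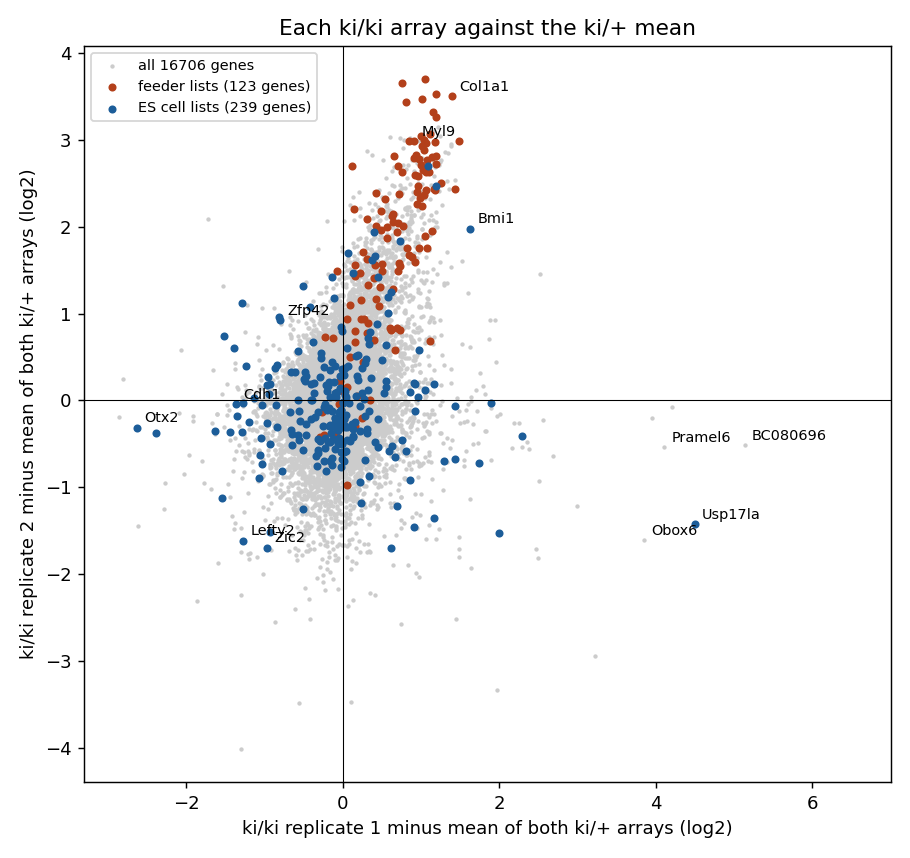
Each point is a gene, with the log2 difference of ki/ki replicate 1 (x axis) and of ki/ki replicate 2 (y axis) from the mean of both ki/+ arrays, which the axes share. The 123 feeder genes extend upwards along ki/ki replicate 2, with Col1a1 near the top, while Usp17la, BC080696 and Obox6 lie far to the right, high on ki/ki replicate 1 only, and Lefty2 and Zic2 lie below 0 on both axes.

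With all 6 arrays, no probe set passed an adjusted p of 0.05 in limma's moderated test (0% of 37950, smallest adjusted p = 0.391). At an unadjusted p under 0.05 there were 3899 probe sets, 10.3% of those tested, of which 2311 were higher and 1588 lower in ki/ki. The wild type replicates, which were closer together than those of either knock-in genotype, lower the spread estimated in this fit. In the same test on the 4 knock-in arrays alone, 2118 probe sets had an unadjusted p under 0.05, and the smallest adjusted p was 0.859. That fit also has fewer residual degrees of freedom, and the share of each in the lower count was not tested. By gene, both ki/ki arrays lay above both ki/+ arrays for 2637 of 16706 genes (15.8%) and below both for 3519 (21.1%). The median ki/ki minus ki/+ difference over all genes was -0.05 (log2). With 2 arrays on each side, 0.333 is the smallest p that an exact permutation of the array labels (two-sided) allows for a single gene. Since limma with all 6 arrays called no probe set, members below are described by their array values, by whether the 2 groups overlap, and by the median of their list. Counts of members without overlap are to be read against the shares of all genes, 15.8% higher and 21.1% lower.

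The calls depended on which ki/ki array was left out. Without ki/ki replicate 1, 4996 probe sets passed the adjusted threshold, 3191 higher in the remaining ki/ki array (8.41%) and 1805 lower (4.76%). Without ki/ki replicate 2, 62 passed, 48 higher (0.126%) and 14 lower (0.0369%). Each of these fits has a lone ki/ki array that is assumed to vary like the other genotypes. The 2 sets of calls shared 4 probe sets that were higher and 3 that were lower, while 6 probe sets were called in opposite directions. The shared ones were 0.14% of the first set and 11.3% of the second.

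Fibroblast genes were higher in ki/ki than in ki/+ as a group. Of 133 genes in 6 lists of fibroblast products, 123 were measured, and both ki/ki arrays lay above both ki/+ arrays for 95 of them (77.2%, against 15.8% of all genes) and below both for 4 (3.25%, against 21.1%). The median difference was 1.28 (log2), beside -0.05 over all genes. The full order of feeder level over the 4 arrays was found in 91 of the 123 (74%) and in 1442 of all genes (8.63%). That order was set by the matrix genes, which are part of the 123. Of the other 93 feeder genes 68 had it (73.1%) and 71 were higher without overlap (76.3%), with a median difference of 1.21. ki/ki replicate 2 set most of these differences: the 30 matrix genes had a median difference of 2.59 without ki/ki replicate 1, with 24 called higher, and of 0.93 without ki/ki replicate 2, with none called.

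Among the matrix genes, 24 of 30 were higher in ki/ki without overlap (15.8% of all genes were) and 1 was lower (21.1%). The median difference was 1.72. Col1a1, a chain of type I collagen, had log2 intensities of 6.94 and 7.72 on the ki/+ arrays, 8.73 and 10.83 on the ki/ki arrays and 9.59 and 9.96 on the wild type arrays. The difference was 2.45 (SE 0.64, adjusted p = 0.429), and more of the gap lay between the ki/ki replicates than between the genotypes' nearest arrays. Loxl1, a collagen and elastin crosslinking enzyme, had 7.32 and 7.57 in ki/+ and 8.41 and 10.02 in ki/ki. Col8a1, a short-chain collagen, had 7.06 and 7.35 in ki/+ and 8.24 and 10.10 in ki/ki. The same arrays were high and low for the small leucine-rich proteoglycans decorin (Dcn), with 7.73, 8.73, 9.27 and 10.59 in that order of arrays, and lumican (Lum), with 5.52, 6.04, 6.70 and 7.38. A second probe set of Dcn, which read 4.24 to 4.46 over the arrays, near the filter minimum, had a difference of 0.00, while those of Col1a1 and Col8a1 lay on the same side as the ones given.

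Secreted factors, proteases and surface proteins of fibroblasts followed the same order of arrays. Of 25 secreted factors and proteases, 18 were higher in ki/ki without overlap (15.8% of all genes were) and 1 lower (21.1%). Their median was 1.35. The stromelysin Mmp3 had 8.42 and 9.62 in ki/+ and 10.46 and 11.46 in ki/ki. Igfbp7, a secreted protein of the insulin-like growth factor binding family, had 9.44 and 10.44 in ki/+ and 11.20 and 12.44 in ki/ki, although 1 of its 3 probe sets lay the other way (-0.32). Of 16 surface proteins, 14 were higher without overlap and none lower, with a median of 1.68. These included the platelet-derived growth factor receptor Pdgfra (difference 1.28, SE 0.34), the adhesion molecule Vcam1 (1.66, SE 0.45), the fibroblast and T cell glycoprotein Thy1 (1.47, SE 0.40) and the hyaluronan receptor Cd44 (1.80, SE 0.49), each at an adjusted p of 0.429. For Thy1 the arrays read 8.97 and 10.05 in ki/+ and 10.56 and 11.40 in ki/ki, with wild type at 10.82 and 10.94, so the wild type arrays lay between the 2 ki/ki arrays.

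Mesenchymal transcription factors gave 12 of 17 genes higher in ki/ki without overlap (15.8% of all genes were) and 1 lower (21.1%). Their median was 0.79. Twist1, a basic helix-loop-helix factor of mesoderm, had 5.34 and 5.77 in ki/+ and 6.26 and 7.05 in ki/ki. Its relative Twist2 had 6.84 and 7.94 in ki/+ and 8.35 and 9.79 in ki/ki. The zinc finger repressor Snai2 had 6.78 and 7.66 in ki/+ and 8.18 and 9.70 in ki/ki. All 3 were lowest on ki/+ replicate 1 and highest on ki/ki replicate 2.

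Contractile genes, many of which serum response factor (SRF) controls, had 16 of 20 members higher in ki/ki without overlap and none lower. The shares of all genes were 15.8% and 21.1%, and the list's median was 1.24. Smooth muscle actin, Acta2, had 11.10 and 12.21 in ki/+ and 12.72 and 14.08 in ki/ki (difference 1.75, SE 0.51, adjusted p = 0.429). The actin crosslinker filamin A, Flna, had 8.92 and 9.41 in ki/+ and 10.24 and 10.92 in ki/ki, and the tropomyosin gene Tpm4 had 10.21 and 10.85 in ki/+ and 11.31 and 12.54 in ki/ki. SRF binds the CArG box, searched for here as CC, then 6 bases that are each A or T, then GG, on both strands and in the 250 bases before each annotated start. A match stood in 482 of 32851 RefSeq promoter windows of assembly GRCm38.p6 (1.47%). Of the 20 contractile genes 18 had a window, and 6 of these held a match: Cnn2, Filip1l, Lima1, Myl9, Srf and Vcl. The list was drawn up as contractile and SRF genes, Srf included, so matches in it are no test of SRF. The list count is also of genes, while the 1.47% is of windows. Most members of the list followed 1 order of arrays. The 4 members whose groups overlapped were Cnn2, Lima1, Myl9 and Srf, and all of these held a match. The matches of the 6 genes are given with their flanking bases, and only Filip1l and Vcl among them were higher in ki/ki without overlap. Each sequence reads 5′ to 3′ on the strand of the gene, and capitals mark the CArG boxes.
Cnn2, chr10:79988529-79988568, plus strand: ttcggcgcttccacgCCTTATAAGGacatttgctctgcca
Filip1l, chr16:57549165-57549204, plus strand: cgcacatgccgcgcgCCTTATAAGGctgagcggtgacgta
Lima1, chr15:99820172-99820211, minus strand: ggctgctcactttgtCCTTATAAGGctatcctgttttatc
Myl9, chr2:156775288-156775327, plus strand: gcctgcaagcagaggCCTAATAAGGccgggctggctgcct
Srf, chr17:46556200-46556259, minus strand: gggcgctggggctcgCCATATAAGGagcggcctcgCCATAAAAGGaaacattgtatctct
Vcl, chr14:20929156-20929195, plus strand: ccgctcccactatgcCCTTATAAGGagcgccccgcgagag

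The 6 genes with a CArG box did not share 1 size of difference. Filip1l, which encodes a filamin A interacting protein, had 6.96 and 7.97 in ki/+ and 8.65 and 10.44 in ki/ki, and the focal adhesion protein vinculin (Vcl) had 9.53 and 10.31 in ki/+ and 10.42 and 11.49 in ki/ki, both without overlap. The myosin regulatory light chain gene Myl9 had 8.21 and 10.12 in ki/+ and 10.08 and 12.15 in ki/ki, so the groups overlapped even though the difference of the means was 1.95. Calponin 2 (Cnn2, difference 0.84, SE 0.46) and the LIM protein gene Lima1 (0.30, SE 0.28) overlapped as well. Srf itself, with CArG boxes in 2 places, had 7.91 and 8.01 in ki/+ and 7.92 and 8.18 in ki/ki, a difference of 0.10 (SE 0.16) that was within the spread of the replicates.

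YAP and TAZ are transcriptional coactivators that respond to cell spreading and tension. Of 16 targets and cofactors, 11 were higher in ki/ki without overlap (15.8% of all genes were) and 1 lower (21.1%), with a median of 0.69. The matricellular protein gene Ccn1 had 9.87 and 10.83 in ki/+ and 11.24 and 11.999 in ki/ki. Amotl2, an angiomotin-family scaffold that binds YAP, had 8.96 and 9.01 in ki/+ and 9.63 and 10.27 in ki/ki. The tissue factor gene F3 had 7.52 and 8.44 in ki/+ and 9.17 and 10.79 in ki/ki. In all 3 the gap between the ki/ki replicates was larger than that between ki/+ replicate 2 and ki/ki replicate 1.

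Most markers of the other cell types that such a culture could hold did not show the same order. Of 43 measured genes of muscle, cartilage, leukocytes and endothelium, 7 were higher in ki/ki without overlap (16.3%, against 15.8% of all genes) and 10 lower (23.3%, against 21.1%), with a median of -0.07. The myogenic list had 1 higher and 5 lower of 14, the cartilage list 2 and 1 of 10, the leukocyte list 4 and 1 of 11, and the endothelial list 0 and 3 of 8. The feeder order was found in 5 of the 43 (11.6%, against 8.63% of all genes). Among these were the macrophage lysozyme gene Lyz2, with 7.997, 8.74, 9.53 and 10.32, and Cd53 of the leukocyte list. Acta1 of the myogenic list, with 7.33, 7.94, 8.15 and 10.41, and Col11a1 of the cartilage list also had it. Tnnc2, troponin C of fast muscle, had 6.46 and 7.31 in ki/+ and 5.95 and 5.40 in ki/ki. Egfl7, an endothelial secreted factor, had 8.84 and 8.96 in ki/+ and 8.41 and 8.35 in ki/ki. The endothelial Cdh5 and the leukocyte antigen gene Ptprc were added outside the naming rule. On the knock-in arrays Cdh5 read from 4.34 to 4.62 and Ptprc from 3.91 to 4.44, close to the log2 minimum of 4 used as a filter. Other members of these lists read higher on those arrays, with Kdr of the endothelial list from 6.74 to 7.11 and Laptm5 of the leukocyte list from 8.19 to 9.51.

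**Figure D2:**
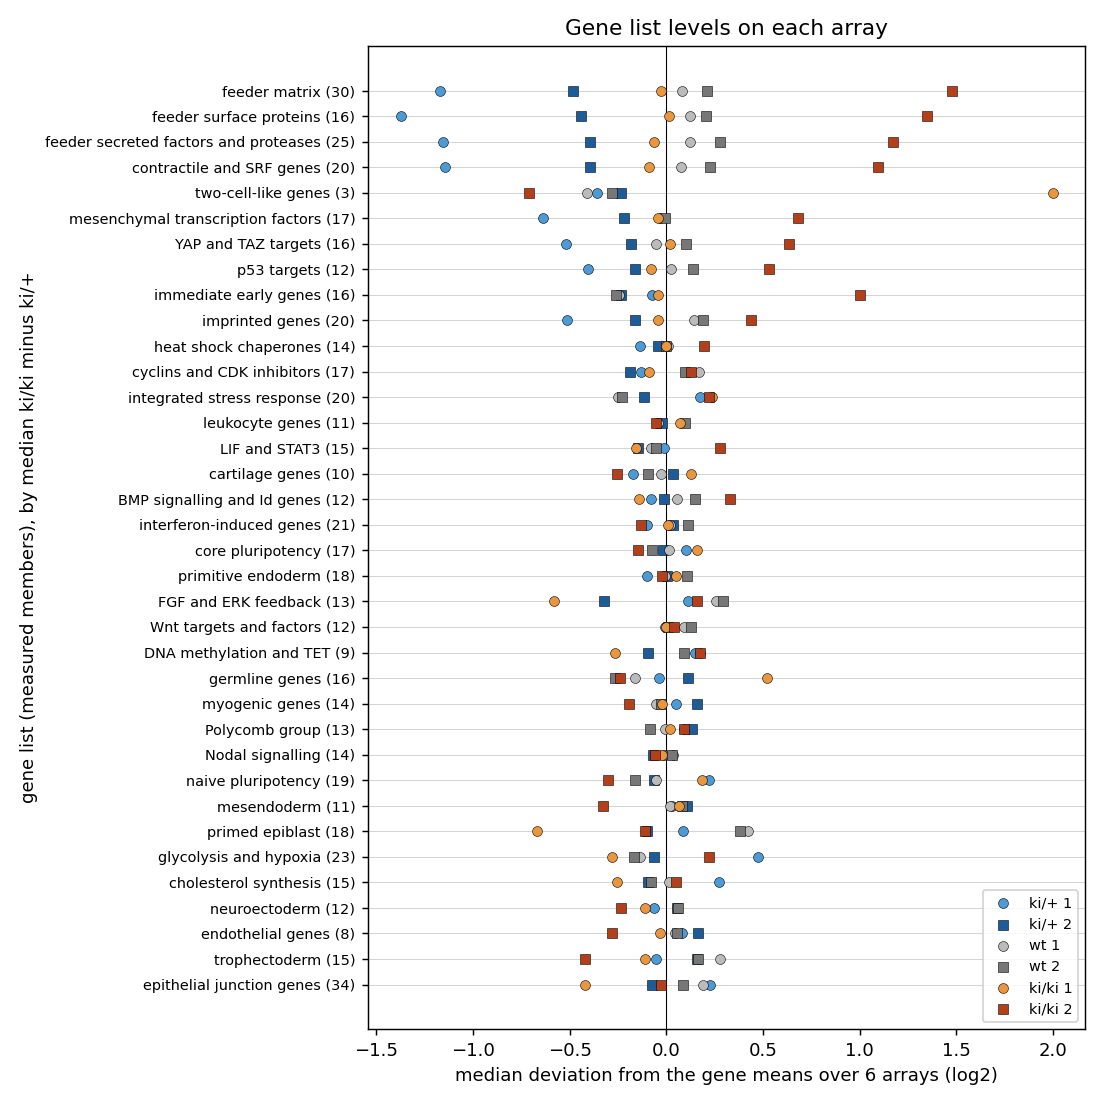
For each of the 36 gene lists (y axis, measured members in brackets) the points give the median deviation of each array from the gene means over the 6 arrays (x axis, log2). The lists of fibroblast genes at the top run from ki/+ replicate 1 on the left to ki/ki replicate 2 on the right, while in the two-cell-like list ki/ki replicate 1 stands alone at the right.

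The 2 genotypes were not separated by Cdh1, while Cdh2 was higher in ki/ki in the order of the feeder level. Cdh1 had log2 intensities of 11.66 and 10.62 on the ki/+ arrays, 9.77 and 11.09 on the ki/ki arrays and 12.17 and 12.13 on the wild type arrays. The 2 knock-in groups overlapped (difference -0.71, SE 0.48, adjusted p = 0.654), and all 4 knock-in arrays lay below the wild type arrays. Since the labels do not give the part of a gene that the insertion replaces, the level of Cdh1 does not check the genotype of a sample. Cdh2, which encodes N-cadherin, had 6.50 and 7.66 in ki/+ and 7.88 and 9.11 in ki/ki, beside 8.27 and 8.46 in wild type. Its difference of 1.42 (SE 0.49, adjusted p = 0.442, second probe set 1.57) was -0.09 with the feeder level in the fit.

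The cytoplasmic partners of the cadherins differed less. Ctnnb1, which encodes beta-catenin, had 12.94 and 12.97 in ki/+ and 12.97 and 13.28 in ki/ki, a difference of 0.17 (SE 0.16). Ctnna1, alpha-catenin, had 12.32 and 12.11 in ki/+ and 12.40 and 12.49 in ki/ki, a difference of 0.23 (SE 0.15). Neither passed the test.

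Epithelial junction genes lay on the low side. Of 34 measured, 11 were lower in ki/ki without overlap (against 21.1% of all genes) and 3 higher (against 15.8%). The median was -0.38, and none passed the adjusted threshold. The lowest p belonged to the tricellular tight junction gene Marveld2, with 5.78 and 5.70 in ki/+ and 4.69 and 5.11 in ki/ki (difference -0.84, SE 0.18, adjusted p = 0.429). Marveld3, a MARVEL-domain tight junction protein gene, had 5.99 and 5.63 in ki/+ and 4.77 and 5.38 in ki/ki, and its other probe sets, at 0.00 and -0.21, read under 5 on every array. Occludin (Ocln) had 6.55 and 6.28 in ki/+ and 5.77 and 6.03 in ki/ki, and the desmosomal plakophilin gene Pkp3 had 7.29 and 7.24 in ki/+ and 6.95 and 6.66 in ki/ki. ki/ki replicate 1 was the lowest array for Marveld2, Marveld3 and Ocln, and the list's median was -0.48 without ki/ki replicate 2 and -0.10 without ki/ki replicate 1. With the feeder level in the fit the list's median was -0.48.

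The core pluripotency genes showed no common direction. Of 17 measured, 3 were higher and 2 lower in ki/ki without overlap (15.8% and 21.1% of all genes were), and the median difference was 0.01. Pou5f1 had 13.08 and 12.73 in ki/+ and 12.96 and 12.60 in ki/ki (difference -0.12, SE 0.19). Sox2 had 12.37 and 12.15 in ki/+ and 12.27 and 11.98 in ki/ki (-0.13, SE 0.18). Nanog had 12.28 and 12.72 in ki/+ and 13.09 and 11.92 in ki/ki, so that the ki/ki arrays were both the highest and the lowest of the 4. Utf1, a chromatin-associated factor of undifferentiated cells, had 12.20 and 12.27 in ki/+ and 11.92 and 11.79 in ki/ki (-0.38, SE 0.14, adjusted p = 0.466). Dppa2, a SAP-domain protein of pluripotent cells, had 11.80 and 11.74 in ki/+ and 12.63 and 11.86 in ki/ki (0.48, SE 0.26), with the gap set by ki/ki replicate 1.

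Naive pluripotency factors varied more between replicates than between genotypes. Of 19 measured, 2 were higher and 2 lower without overlap (15.8% and 21.1% of all genes were). The median was -0.13, with -0.31 without ki/ki replicate 1 and 0.25 without ki/ki replicate 2. Klf4, a Krüppel-like factor that LIF signalling induces, had 11.53 and 10.80 in ki/+ and 11.59 and 10.69 in ki/ki, a difference of -0.03 (SE 0.35), far smaller than the gap within either genotype. Zfp42 (Rex1) had 11.96 and 9.78 in ki/+ and 10.08 and 11.80 in ki/ki, a difference of 0.06 (SE 0.78), and the arrays high for it were the ones high for Eif2s3y. The orphan nuclear receptor gene Esrrb had 10.34 and 10.06 in ki/+ and 10.09 and 9.75 in ki/ki, which overlapped. Dppa3 (Stella) had 10.47 and 11.40 in ki/+ and 9.87 and 10.04 in ki/ki, without overlap (-0.98, SE 0.30, adjusted p = 0.429). Nr5a2, a nuclear receptor that acts upstream of Pou5f1, had 8.57 and 8.44 in ki/+ and 8.04 and 8.23 in ki/ki, and all 4 of its probe sets lay below 0. The 2 members higher without overlap were Manba (0.38, SE 0.16) and Klf5 (0.31, SE 0.16).

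Of 18 genes of the primed epiblast, the state that follows naive pluripotency, 3 were lower and 1 higher without overlap. The shares of all genes were 21.1% and 15.8%, and the list's median was -0.17. The higher member was Sox3 (0.56, SE 0.25). Zic2, a zinc finger factor of the epiblast and neural plate, had 7.37 and 7.32 in ki/+, 6.38 and 5.65 in ki/ki and 7.51 and 7.47 in wild type (difference -1.33, SE 0.24, adjusted p = 0.429). Both ki/ki arrays thus lay below the other 4. Otx2, a homeobox factor of the epiblast, had 8.41 and 7.38 in ki/+ and 5.27 and 7.58 in ki/ki, so ki/ki replicate 1 alone was low and the groups overlapped. Sox11 had 8.28 and 8.61 in ki/+ and 7.16 and 8.08 in ki/ki, and its other 5 probe sets gave smaller differences of -0.10 to -0.45. Fgf5, the growth factor used as an epiblast marker, had 4.58 and 4.75 in ki/+ and 4.56 and 5.85 in ki/ki, with wild type higher at 7.86 and 7.39.

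**Figure D3:**
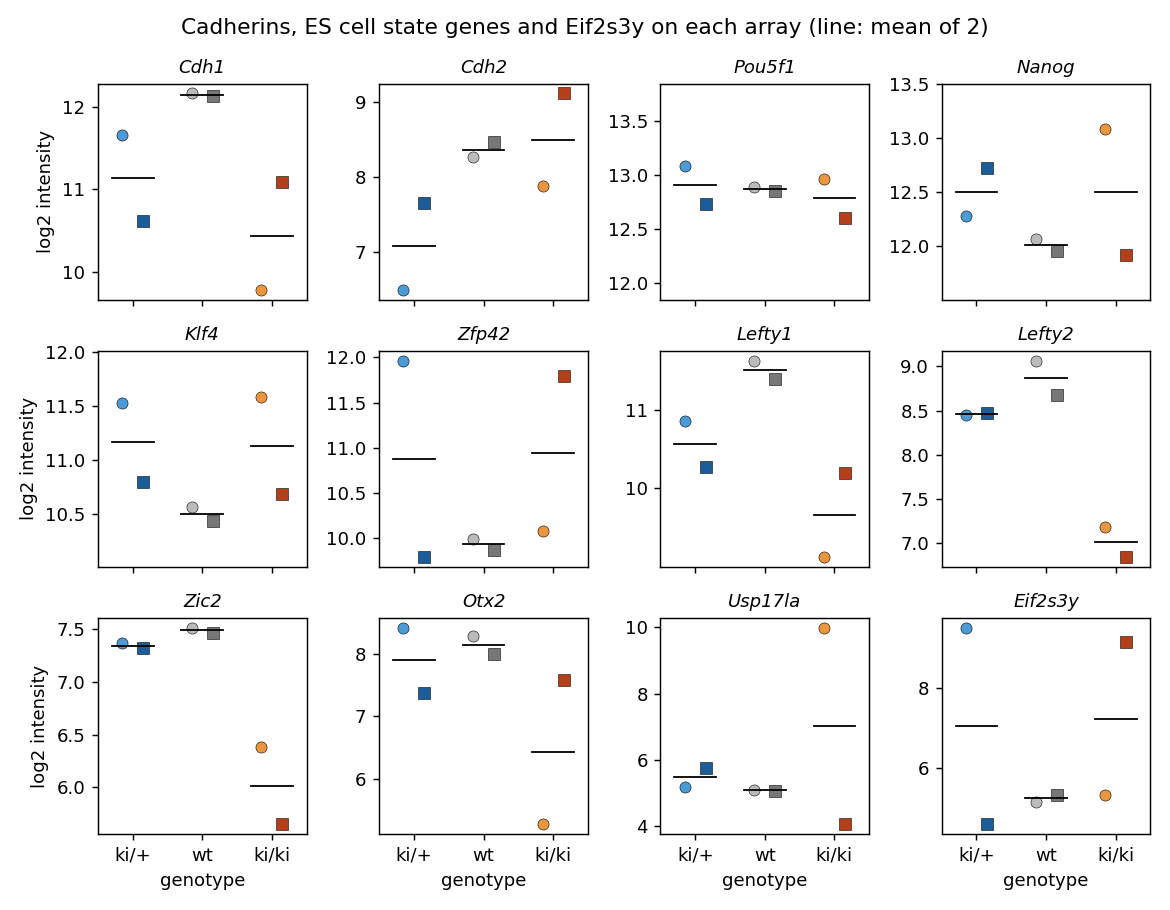
Log2 intensity (y axis) of 12 genes by genotype (x axis), circles for replicate 1, squares for replicate 2 and a line for the mean of each pair. Both ki/ki arrays lie below all other arrays for Lefty1, Lefty2 and Zic2, whereas for Nanog, Klf4, Zfp42, Usp17la and Eif2s3y the ki/ki replicates lie further apart than the means of ki/ki and ki/+.

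Nodal, a ligand of the TGF-beta family, is restrained by the secreted Lefty proteins, whose genes it also induces. The Nodal list had 4 higher and 4 lower of 14 without overlap (15.8% and 21.1% of all genes were), with a median of -0.13. Lefty2 had 8.45 and 8.47 in ki/+, 7.19 and 6.84 in ki/ki and 9.06 and 8.68 in wild type (difference -1.44, SE 0.20, adjusted p = 0.391). The replicates of each knock-in genotype lay close together while the nearest arrays of the 2 genotypes lay over 1 apart. Lefty1 had 10.86 and 10.27 in ki/+, 9.13 and 10.20 in ki/ki and 11.62 and 11.40 in wild type (-0.90, SE 0.37, adjusted p = 0.479), so the groups came close without overlapping. Acvr1b, a type I receptor of the pathway, had 9.16 and 8.74 in ki/+ and 8.39 and 8.49 in ki/ki (-0.51, SE 0.20). Of the higher members, Furin had 6.22 and 6.73 in ki/+ and 7.05 and 7.47 in ki/ki (0.79, SE 0.23). Smad3 had 7.99 and 8.18 in ki/+ and 8.42 and 8.74 in ki/ki (0.50, SE 0.175). Furin and Smad3 both followed the feeder order. In 3 other signalling lists the sign of the median depended on the ki/ki array left out. The median for LIF and STAT3 was 0.15, with 0.44 without ki/ki replicate 1 and -0.02 without ki/ki replicate 2. For BMP and Id genes it was 0.09, with 0.38 and -0.12 in the same order, and for FGF and ERK feedback -0.02, with 0.27 and -0.17. Wnt targets had a median of -0.07 with all arrays and of 0.07 and 0.02 in those fits.

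Lineage genes gave mixed counts. Of 15 trophectoderm genes, 6 were lower in ki/ki without overlap (21.1% of all genes were) and 2 higher (15.8%), with a median of -0.36 that was -0.59 without ki/ki replicate 1 and -0.10 without ki/ki replicate 2. The X-linked homeobox gene Rhox5 had 11.82 and 12.68 in ki/+ and 10.71 and 11.12 in ki/ki (-1.33, SE 0.30, adjusted p = 0.429), beside 11.84 and 11.76 in wild type. The keratin gene Krt7 had 5.76 and 6.10 in ki/+ and 5.16 and 5.11 in ki/ki, and the AP-2 factor gene Tfap2c had 9.58 and 10.09 in ki/+ and 9.19 and 9.32 in ki/ki. Gata3 of the same list lay the other way near the filter minimum, with 4.02 and 4.31 in ki/+ and 4.52 and 4.96 in ki/ki. Of 18 primitive endoderm genes 6 were higher and 2 lower, and the higher ones included type IV collagen chains that fibroblasts also make. The proneural factor gene Neurod1 had 8.87 and 8.90 in ki/+ and 6.50 and 8.52 in ki/ki (-1.38, SE 0.57), with ki/ki replicate 1 far below the other arrays. The median was -0.14 for 11 mesendoderm genes, with -0.34 without ki/ki replicate 1 and -0.04 without ki/ki replicate 2. It was -0.22 for 12 neuroectoderm genes, with -0.37 and -0.05 in that order. For 16 germline genes it was -0.10 and turned from -0.47 to 0.33.

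Among lists of genes that both cell types use, those of p53 targets and immediate early genes lay on the side of the feeder genes. Of 12 targets of p53, 8 were higher in ki/ki without overlap (15.8% of all genes were) and none lower, with a median of 0.62, of 0.89 without ki/ki replicate 1 and of 0.21 without ki/ki replicate 2. The CDK inhibitor gene Cdkn1a (p21) had 9.78 and 10.24 in ki/+ and 10.64 and 11.54 in ki/ki, in the feeder order. Of 16 immediate early genes, 8 were higher and none lower, with a median of 0.60, of 1.16 without ki/ki replicate 1 and of 0.11 without ki/ki replicate 2. Klf6 had 8.87 and 8.86 in ki/+ and 9.41 and 10.48 in ki/ki, and the stress-induced factor gene Atf3 had 7.45 and 7.30 in ki/+ and 7.94 and 8.05 in ki/ki. For Egr3 (difference 1.49) a second probe set gave -0.43. With the feeder level in the fit the medians of the p53 and immediate early lists were 0.06 and -0.24. Since the feeder level also separates the genotypes, that fit does not tell them apart, and the part of feeder RNA in these lists was not tested.

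Of 20 imprinted genes, 9 were higher without overlap (15.8% of all genes were) and 3 lower (21.1%). The median was 0.40, with 0.74 without ki/ki replicate 1 and 0.22 without ki/ki replicate 2. The fetal growth factor gene Igf2 had 9.14 and 9.81 in ki/+ and 10.50 and 10.95 in ki/ki, and the Notch-related Dlk1 had 6.42 and 6.78 in ki/+ and 7.48 and 8.19 in ki/ki, both in the feeder order. Second probe sets of Igf2 and Dlk1 read under 5 on every array, near the filter minimum, and their differences are not set against these. Phlda2, a maternally expressed growth inhibitor of the placenta, lay the other way, with 11.08 and 11.56 in ki/+ and 10.23 and 9.51 in ki/ki (-1.45, SE 0.28, adjusted p = 0.429). Among 23 glycolysis and hypoxia genes 3 were lower and 2 higher without overlap, the higher ones including Vegfa (0.44, SE 0.16). The hypoxia-induced Egln3, a prolyl hydroxylase gene, had 9.68 and 7.96 in ki/+ and 6.55 and 7.57 in ki/ki, and Ankrd37 had 9.25 and 7.81 in ki/+ and 6.94 and 6.65 in ki/ki. For both of these ki/+ replicate 1 stood furthest from the other 3 knock-in arrays, and it was also the highest for the mitophagy receptor gene Bnip3, with 12.16 against 11.03, 10.35 and 11.16.

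The 12 genes of smallest p above 0 and the 12 below 0, among genes whose groups did not overlap, included no gene of the feeder lists and 2 of the ES lists, Bmi1 and Lefty2. Their adjusted p ran from 0.391 to 0.405 over all 6 arrays. All 24 passed the threshold without ki/ki replicate 1 (adjusted p from 0.00583 to 0.0229), and 3 did without ki/ki replicate 2 (adjusted p from 0.0288 to 0.122 over the 24), namely Marveld1, Rab6b and Rasgrp2. Since the 24 were chosen for small p and for groups that do not overlap on the same arrays, these counts are a description and no sign of stability. With the feeder level in the fit their differences ran from 0.83 to 1.63 for the higher genes and from -0.87 to -1.87 for the lower genes. Of the 12 higher genes 5 were in the feeder order: Bmi1, Tslp, C330007P06Rik, Shroom4 and 2510009E07Rik.

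Bmi1, a subunit of Polycomb repressive complex 1, had the largest difference among the 12 higher genes. It read 6.55 and 6.92 in ki/+, 8.36 and 8.71 in ki/ki and 7.34 and 7.58 in wild type. The difference was 1.80 (SE 0.21), with 1.63 for its second probe set. The cytokine gene Tslp, thymic stromal lymphopoietin, had 4.96 and 4.97 in ki/+ and 6.21 and 6.56 in ki/ki. Marveld1, a MARVEL-domain membrane protein gene, had 8.81 and 9.07 in ki/+ and 10.54 and 10.17 in ki/ki, and its 4 probe sets ranged from 0.10, on the dimmest, to 1.42, on the brightest. Rab11fip5, an effector of recycling endosomes, had 7.19 and 6.97 in ki/+ and 8.14 and 8.17 in ki/ki. On the brightest probe sets of these last 2 genes ki/ki replicate 2 was not set apart from replicate 1, unlike for the feeder genes. A dimmer probe set of Rab11fip5 had 5.38 and 4.97 in ki/+ and 5.44 and 6.17 in ki/ki, with ki/ki replicate 2 highest. The galectin gene Lgals3 had 8.75 and 8.72 in ki/+, 9.73 and 10.12 in ki/ki and 9.96 and 10.12 in wild type, so that it was the ki/+ arrays that stood below the other 4. The cholesterol exporter gene Abca1 had 6.75 and 6.64 in ki/+ and 7.75 and 8.08 in ki/ki, and its other probe sets read under 5 on every array. 2510009E07Rik, a gene named by its clone, had a difference of 1.52 on a probe set that read 4.11 to 6.07, and its other probe set stayed near the filter minimum.

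The other 5 of the 12 higher genes lie on the X chromosome. Xist, the noncoding RNA that silences an X chromosome, had 7.18 and 7.02 in ki/+, 8.19 and 8.26 in ki/ki and 8.06 and 8.40 in wild type (difference 1.13, SE 0.17). The scaffold kinase gene Cask had 7.24 and 7.05 in ki/+ and 8.28 and 8.10 in ki/ki, and all 4 of its probe sets lay above 0, from 0.64 to 1.05. C1galt1c1, a chaperone of the core O-glycosylation enzyme, had 8.42 and 8.21 in ki/+ and 9.47 and 9.26 in ki/ki, and its other probe set, with a difference of 0.01, read only 4.81 to 5.38. Shroom4, an actin-binding Shroom family member, had 7.02 and 7.09 in ki/+ and 8.02 and 8.30 in ki/ki. C330007P06Rik had 7.81 and 7.98 in ki/+ and 9.001 and 9.15 in ki/ki. Wild type lay between the genotypes for Cask, C1galt1c1, Shroom4 and C330007P06Rik, and close to the ki/ki level for Xist.

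Among the 12 lower genes, Upp1, which encodes uridine phosphorylase, had 12.61 and 12.24 in ki/+, 11.16 and 11.14 in ki/ki and 11.54 and 11.42 in wild type (difference -1.27, SE 0.17). The metallothionein gene Mt1, whose product binds zinc and copper, had 12.99 and 12.95 in ki/+, 12.03 and 12.01 in ki/ki and 13.13 and 13.08 in wild type (-0.95, SE 0.14). On this probe set the replicates differed by under 0.1 in every genotype. A second, dimmer probe set of Mt1 (-0.51) had 7.50 and 7.28 in ki/+, 6.53 and 7.22 in ki/ki and 6.81 and 6.73 in wild type. The related Mt2 and Mt4, named after their values were seen, also lay lower in ki/ki, with -0.70 (SE 0.22) for Mt2 and -2.09 (SE 0.49) for Mt4. Psmb10, an immunoproteasome subunit gene, had 8.74 and 8.16 in ki/+, 7.04 and 7.11 in ki/ki and 8.73 and 8.58 in wild type. Rasgrp2, an exchange factor for the small GTPase Rap1, had 9.83 and 9.74 in ki/+, 8.10 and 8.76 in ki/ki and 10.20 and 10.10 in wild type, but 1 of its 4 probe sets gave 0.19. For Psmb10, Rasgrp2 and the brighter Mt1 probe set the wild type arrays were at the ki/+ level or above it. On the second Mt1 probe set they lay below both ki/+ arrays.

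For other lower genes the wild type was nearer to ki/ki. Acot1, an acyl-CoA thioesterase gene, had 8.60 and 7.99 in ki/+, 6.91 and 6.81 in ki/ki and 7.01 and 6.90 in wild type. Bmf, a pro-apoptotic BCL2-family gene, had 7.84 and 7.60 in ki/+, 6.51 and 5.95 in ki/ki and 6.27 and 5.98 in wild type, and its other probe sets gave -0.18 and -0.61. Gm13261, a gene model with no given role, had 7.73 and 7.49 in ki/+, 6.31 and 5.86 in ki/ki and 6.51 and 6.26 in wild type. In these 3 genes it was the ki/+ arrays that stood apart from the other 4. The glutathione transferase gene Gstm3 (-1.51, SE 0.24), the Golgi GTPase gene Rab6b (-1.77, SE 0.29), the DNA repair gene Zswim7 (-1.12, SE 0.16) and the anaphase-promoting complex subunit gene Anapc11 (-0.93, SE 0.15) complete the 12.

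**Figure D4:**
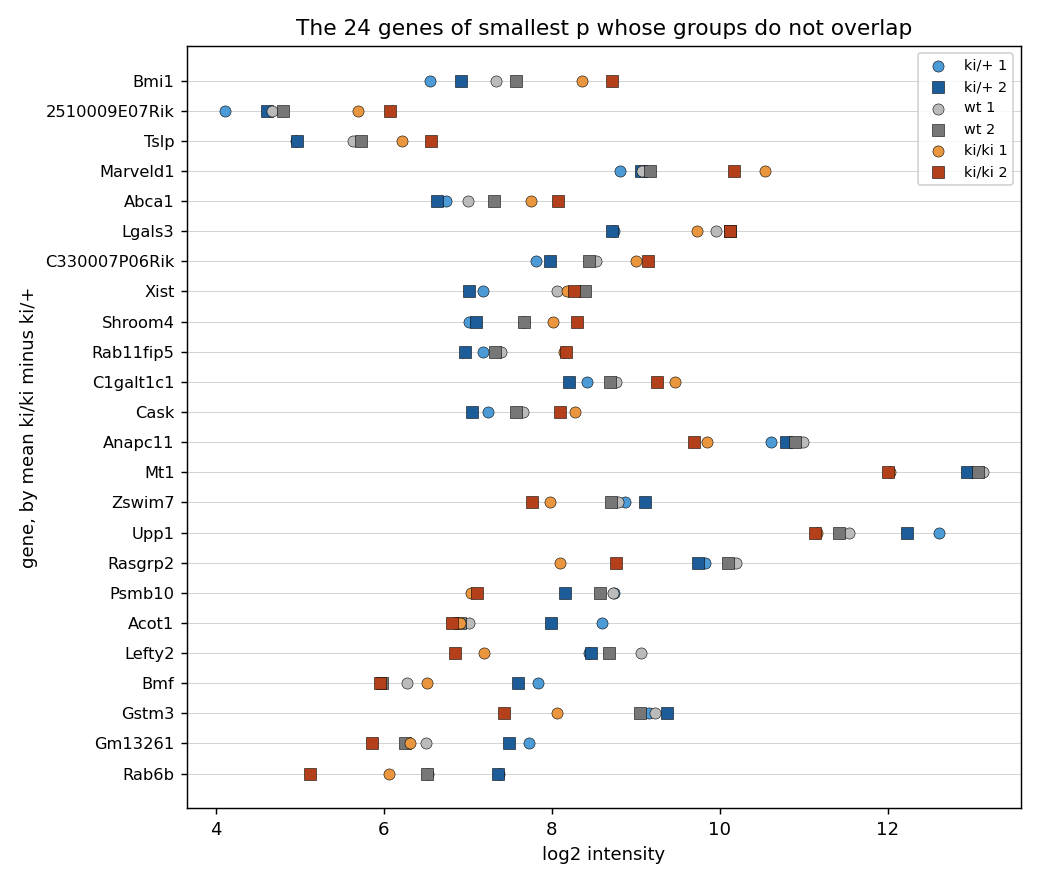
Log2 intensity (x axis) of the 12 higher and 12 lower genes of smallest p (y axis, by ki/ki minus ki/+), with a point for each of the 6 arrays. The orange and red ki/ki points stand together on one side of both blue ki/+ points in every gene, while the grey wild type points lie between them for Bmi1, with ki/ki for Acot1 and with ki/+ for Mt1.

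A further group of genes was high on ki/ki replicate 1 alone. Usp17la, a deubiquitinating enzyme gene of the list of genes marking two-cell-like ES cells, had 5.19 and 5.77 in ki/+, 9.98 and 4.06 in ki/ki and 5.11 and 5.07 in wild type. Of that list 3 of 10 genes were measured. Zfp352 had 5.64 and 5.60 in ki/+ and 6.54 and 5.81 in ki/ki, and the arginase gene Arg2 had 4.36 and 4.48 in ki/+ and 6.72 and 4.01 in ki/ki. The list's median difference was 0.94 with all arrays, 2.30 without ki/ki replicate 2 and -0.42 without ki/ki replicate 1. Usp17la and Arg2 thus separated the 2 ki/ki cultures from each other and not the genotypes.

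The 62 probe sets called without ki/ki replicate 2 included 47 with a single symbol, for 39 different genes, and 7 of these genes, named after their values were seen, are given here. BC080696 had 3.78 and 4.38 in ki/+ and 9.22 and 3.56 in ki/ki. The oocyte homeobox gene Obox6 had 6.02 and 6.57 in ki/+ and 10.15 and 4.69 in ki/ki. The PRAME family genes Pramel6 (3.90, 4.99, 8.55 and 3.90) and Pramel7 (3.99, 4.88, 8.39 and 4.23) and AF067061 (5.79, 6.64, 10.43 and 6.14), in the order ki/+ replicates 1 and 2 and ki/ki replicates 1 and 2, had the same shape. On the X chromosome, Cited1, a transcriptional coregulator gene, had 4.85 and 5.56 in ki/+ and 7.90 and 4.57 in ki/ki, and Lonrf3, a RING finger gene, had 6.22 and 6.64 in ki/+ and 8.99 and 6.20 in ki/ki. The called genes included 9 on the X chromosome, which holds 3.24% of all genes, and all 9 were higher, as were 48 of the 62 called probe sets.

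Genes of the X chromosome were higher in ki/ki as a whole. The 541 X-linked genes, 3.24% of all, had a median difference of 0.23 (log2), and 38.3% of them were higher in ki/ki without overlap, against 15.8% of all genes, while 5.91% were lower. They made up 36 of the 100 genes of smallest p on the higher side. By array, their median deviation was -0.13 and -0.14 in ki/+, 0.25 and -0.07 in ki/ki and 0.03 and 0.02 in wild type, so ki/ki replicate 1 stood above the other arrays. Without that array the median difference was 0.03, and without ki/ki replicate 2 it was 0.41. The glypican gene Gpc4 is an X-linked gene that was higher on both arrays, with 9.11 and 10.05 in ki/+ and 11.10 and 11.18 in ki/ki. It was 1 of 13 genes whose groups lay over 1 log2 unit apart on the higher side, beside 10 on the lower side.

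Genes of chromosome 11 lay lower in ki/ki, where a single ki/+ array stood apart. The 1362 genes had a median difference of -0.15, 30.5% were lower without overlap against 21.1% of all genes, and 26 of the 100 genes of smallest p on the lower side were on this chromosome, Upp1, Zswim7 and Anapc11 among them. By array the median deviation was -0.01 and 0.15 in ki/+, -0.07 and -0.06 in ki/ki and 0.01 and -0.01 in wild type. The median difference was -0.06 without ki/+ replicate 2, close to the -0.05 of all genes, and -0.22 without ki/+ replicate 1. On chromosome 7, ki/+ replicate 2 and ki/ki replicate 1 had 0.12 and 0.11 and the other knock-in arrays -0.01 and -0.11, with a median difference of -0.05, close to that of all genes.

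**Figure D5:**
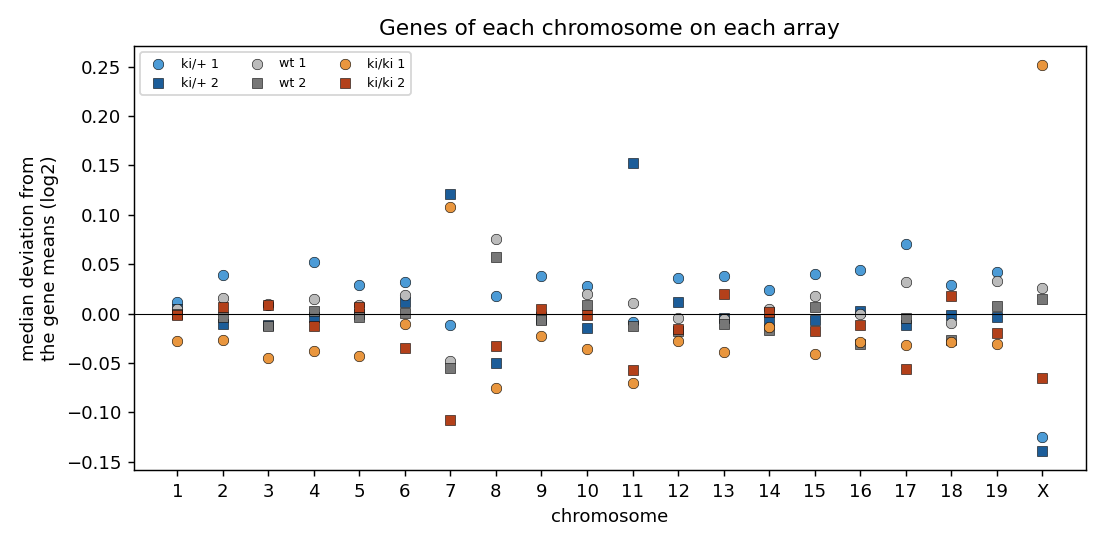
Median deviation of the genes of each chromosome from the gene means (y axis, log2) on each of the 6 arrays, by chromosome (x axis, with Y left out). ki/ki replicate 1 stands at 0.25 on the X chromosome with both ki/+ arrays near -0.13, and ki/+ replicate 2 stands at 0.15 on chromosome 11.

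Set beside each other, the lists grouped here as ES lists and those of feeder genes gave different counts. The ES lists also hold signalling, chromatin and lineage genes that are not confined to ES cells, among them the type IV collagen chains that fibroblasts also make. Of 261 genes in these 17 ES lists, 239 were measured. Of the 239, 37 were higher in ki/ki without overlap (15.5%) and 49 lower (20.5%), next to 15.8% and 21.1% of all genes. Their median difference was -0.10, and 7.95% of them had the order of the feeder level, next to 8.63% of all genes and 74% of the feeder genes. Among all genes higher in ki/ki without overlap, 1442 of 2637 (54.7%) had that order, and among the lower ones 1286 of 3519 (36.5%) had the reverse order. A fit with the feeder level of each array as a covariate called no probe set (smallest adjusted p = 0.0817), with 3237 at an unadjusted p under 0.05. Because the feeder level itself separates the genotypes, that fit divides the difference between both terms, and the feeder level and the genotype cannot be fully told apart with these 4 arrays.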

How the data were processed

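Gene expression was measured on Affymetrix arrays, 2 for each of 3 genotypes. The authors deposited linear intensities. The series text states that GCRMA with quantile normalization made them and names simpleaffy for quality control and limma, without versions. GCRMA models background, so low values are drawn together and their differences are understated. Array medians lay between 49.97 and 53.34. A second deposited table also held 6 columns of another series, which were not used.

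Log2 was taken of the intensities, and limma 3.58.1 in R 4.3.3 was fitted to all 6 arrays, with genotype as the only term, for 37950 probe sets above log2 4 on at least 2 arrays. 64 control probe sets were left out. The fit had 3 residual degrees of freedom, a prior of 3.57, and Benjamini-Hochberg adjustment. A gene was read from its single-symbol probe set of highest mean. Of all probe sets 34958 had 1 symbol, 932 several and 9211 none listed, and 34754 of the single symbols stood in RefSeq GRCm38.p6. Probe sets ending in _s_at or _x_at can bind related transcripts. The number of arrays limits the precision. The p-values rest on a spread between cultures that is pooled over the 3 genotypes and moderated over probe sets. They do not measure a spread between clones, whose number the labels do not give.

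Genes were named by rule: the 12 of smallest p on each side without overlap, up to 4 of smallest p from each of 36 lists, and a fixed set of cadherin, pluripotency and feeder genes. Genes given with the CArG sequences or among those high on ki/ki replicate 1, and Gpc4, Cdh5 and Ptprc, were added. The members and lists were chosen with earlier results of these data known. The test was checked on simulated data with independent noise and an equal spread in all genotypes. The replicates here were unequally far apart, so that check does not cover this feature of the data. Alternatives covered normalization, filters, prior, array weights, the replicate block, feeder level, probe set choice and leaving out each array.

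The replicate numbers do not pair the samples: replicate differences of ki/+ and ki/ki correlated at -0.0445 across genes, those of ki/+ and wild type at 0.171 and those of ki/ki and wild type at 0.0891, and the labels tie no number to a shared source.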

Additional observations from a re-analysis of the deposited data

Results flagged for a closer look

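The control probe sets for 18S ribosomal RNA, which no comparison above uses, had a mean log2 intensity of 11.40 over the 4 knock-in arrays and 7.17 over the wild type arrays. They drew attention because the signal lies in data outside the main measurement and far above its level in the wild type. Within the knock-in arrays they read 11.57 and 11.54 in ki/+ and 11.36 and 11.12 in ki/ki, so the gap between ki/ki and ki/+ was small beside the gap to wild type. Whether the knock-in and wild type samples were labelled alike was not tested, and the wild type arrays enter the estimate of the spread.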

How the results depend on the processing

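No probe set was called under quantile normalization, either filter, the trended prior, the 4 knock-in arrays alone, array weights or the feeder covariate, nor without either ki/+ or wild type array, where from 1602 to 4383 probe sets had an unadjusted p under 0.05. Leaving out 1 array gave 0 to 4996 calls, the highest without ki/ki replicate 1, and 62 without ki/ki replicate 2. The replicate block gave 0 calls (smallest adjusted p = 0.185, 4136 probe sets at an unadjusted p under 0.05). The matrix list's median ran from 0.93 to 2.59 over left-out arrays and was -0.010 with the feeder covariate. The core pluripotency median was 0.21 with that covariate, and the X chromosome median ran from 0.026 to 0.41 over left-out arrays. The feeder covariate turned the sign of Cdh2 (-0.089), Ctnnb1 (-0.11), Pou5f1 (0.32), Sox2 (0.21), Klf4 (1.02), Esrrb (0.13), Zfp42 (-0.54), Fgf5 (-0.58), Eif2s3y (-1.16), Cnn2 (-0.59), Vcl (-0.19), Srf (-0.16), Myl9 (-0.56) and Lima1 (-0.46). Quantile normalization turned Nanog (-0.0099). Over left-out arrays the sign turned for Pou5f1 (-0.30 to 0.053), Sox2 (-0.28 to 0.014), Nanog (-0.58 to 0.59), Klf4 (-0.48 to 0.42), Zfp42 (-1.03 to 1.15), Fgf5 (-0.11 to 1.18), Eif2s3y (-2.26 to 2.63), Srf (-0.036 to 0.23) and Lima1 (-0.12 to 0.72). It also turned for Arg2 (-0.42 to 2.30), Usp17la (-1.43 to 4.50), Pramel6 (-0.54 to 4.11), Pramel7 (-0.20 to 3.96), AF067061 (-0.075 to 4.22), BC080696 (-0.52 to 5.14), Obox6 (-1.61 to 3.85), Cited1 (-0.64 to 2.69) and Lonrf3 (-0.23 to 2.56). The feeder covariate is built from feeder genes, so their medians near 0 under it follow from its construction, and the causes of the other turns were not tested. The stricter filter left no gene of the two-cell-like list. With 2 arrays a genotype, differences near the gap between replicates were not detectable.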
